A study of Homo sapiens with 6 samples.

Results

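The stathmin family was taken as the 4 genes STMN1, STMN2, STMN3 and STMN4, whose rows were found by symbol among the 36458 gene symbols of the count table. Polyadenylated RNA of DMS114, an established line of human small cell lung cancer, was sequenced to make it. Cells received β-alanine at 2.5 mM, or the same volume of vehicle, for 48 h, and each condition had 3 libraries. The series belongs to a study of STMN2, β-alanine and invasion towards neurons, and the 4 genes show which stathmin transcripts these cells carried and how each stood after β-alanine. The study used this line alone, and the labels do not say that libraries came from separate cultures, so p-values measure the spread between these libraries, which may be technical.

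Stathmins are small phosphoproteins that bind tubulin dimers, keep them out of the growing polymer and promote microtubule shortening, and phosphorylation by cell-cycle and signalling kinases weakens this binding. STMN1, also called oncoprotein 18, is cytosolic and is high in dividing cells, where it must be switched off for the spindle to form. STMN2 (SCG10), STMN3 (SCLIP) and STMN4 (RB3) carry an extra N-terminal domain that is palmitoylated and anchors them to Golgi and vesicle membranes, and they are best known from neurons and their growth cones.

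DMS114 cells carried mostly STMN1, with STMN3 at a lower level and hardly any STMN2 or STMN4. STMN1 had 66511 counts over the 6 libraries and STMN3 had 7639, against 15 for STMN2 and 9 for STMN4. STMN1 fell by 13.6% after β-alanine, while STMN3 was 8.54% higher without passing the test. In bulk libraries fewer cells of a type and less RNA per cell cannot be told apart. The ratio of STMN1 to STMN3 counts was lower in all 3 β-alanine libraries than in any control (exact permutation p = 0.1, the smallest possible).

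Library totals ran from 14433801 to 32909568 counts. After the low-count filter 17331 genes were tested, of which 2441 (14.1%) rose and 2389 (13.8%) fell with a threshold of 0.05 on Benjamini-Hochberg adjusted p-values from the quasi-likelihood F-test of edgeR, 27.9% in all. Below, a gene that passed this edgeR test is called higher or lower. That total of 4830 was 2974 without β-alanine library 2 and 3058 without control library 2. The groups did not overlap in 39.1% of tested genes. β-alanine library 1 lay about as close to the controls as to the other treated libraries, with a mean chi-square per gene of 4.56 to 5.47 against controls and of 4.22 and 4.92 against β-alanine libraries 2 and 3, so STMN1, STMN3 and their ratio are also given without it below. Of 13 markers of small cell lung cancer and neuroendocrine cells, CHGA, CHGB, SYP, ENO2, UCHL1, DLL3 and YAP1 had control means from 10.7 to 124 CPM (counts scaled to library totals with TMM factors). The subtype factor POU2F3 and the neuroendocrine factor INSM1 were under 0.5 CPM in both groups, and NEUROD1 was at 2.28 CPM in controls. Of the epithelial markers, the keratin KRT18 rose from 8.11 to 11.9 CPM (edgeR, adjusted p = 0.000323), while EPCAM was at 0.926 and the keratin KRT8 at 0.18 CPM in controls. Fibroblast-type genes were present, with COL3A1 at 876 and DCN at 191 CPM in controls, whereas COL1A2 was at 0.0541. The summed level of the 6 fibroblast markers was 908 to 1009 CPM after β-alanine and 1140 to 1184 in controls, with 1 of its 5 tested genes higher and 3 lower. The 13 small cell and neuroendocrine markers summed to 441 to 483 CPM after β-alanine and 403 to 410 in controls, with 4 of 9 tested genes higher and 1 lower, and the epithelial markers to 11.8 to 14.7 and 8.91 to 9.89 CPM. The part of these markers in the results was not tested. Immune and endothelial marker lists summed to 0.182 to 0.637 CPM in every library.

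STMN1 lies on chromosome 1 from 25884179 to 25906880 and STMN3 on chromosome 20 from 63639712 to 63653424, both on the minus strand (GRCh38.p14, RefSeq). Their promoters are shown because these are the only members with transcript levels that could be tested, and because the gene counts do not tell which start site was used. RefSeq lists 3 start sites for STMN1 and 1 for STMN3 in the table used. The STMN1 stretch is chr1:25906467-25906669, upstream of the start at 25906419 and ending where GENCODE 29 places the first exon, at 25906466. This stretch lies inside the RefSeq span of STMN1, whose upstream end at 25906880 is another listed start. The STMN3 stretch is chr20:63652767-63653016, the 250 bases before the start at 63652766. It lies inside the RefSeq span of STMN3 given above, whose upstream end is at 63653424. No window before that end was searched. Both are printed on the minus strand, with capitals for each GC box GGGCGG, E-box CACGTG and CCAAT box that lies wholly inside the stretch.
STMN1: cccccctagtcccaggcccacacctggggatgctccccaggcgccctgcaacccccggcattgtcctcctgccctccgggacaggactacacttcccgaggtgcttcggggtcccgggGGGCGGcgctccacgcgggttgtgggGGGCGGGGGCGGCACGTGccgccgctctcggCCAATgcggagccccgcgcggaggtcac
STMN3: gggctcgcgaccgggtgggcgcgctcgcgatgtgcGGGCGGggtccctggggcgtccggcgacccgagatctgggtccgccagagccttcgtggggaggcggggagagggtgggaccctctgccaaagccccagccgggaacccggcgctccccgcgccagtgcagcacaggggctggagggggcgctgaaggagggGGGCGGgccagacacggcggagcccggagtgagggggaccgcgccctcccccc

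In the 250 bases before the STMN1 start at 25906419, read on both strands, GGGCGG began at -132, -106 and -100, CACGTG at -94 and -50 and CCAAT at -75. The E-box at -50 is cut by the end of the printed stretch and stands there in lower case. The letters TTTGGCGC, a form of the E2F site, began at -38, between the GENCODE and RefSeq starts and outside the printed stretch. The 250 bases before the STMN3 start at 63652766 held GGGCGG at -215 and -53. The E-box, the CCAAT box and both E2F forms searched were not found in it. Among 35116 promoter windows of 250 bases, 42.6% held GGGCGG, 32% CCAAT, 6.34% CACGTG and 0.55% TTTGGCGC. The other letters searched were TTTCCCGC, a second E2F form (1.39% of windows), TGACGTCA, the cAMP response element (1.65%), TGACTCA, the AP-1 site (4.20%), and TTCAGCACC, part of the element bound by REST (0.288%). None of these stood in the 2 windows described. Of the other STMN1 starts, the window before 25906880 held TTTCCCGC at -250, and that before 25906045 held GGGCGG at -244, -237, -206 and -174, with no other match in either. A match in letters is a description only.

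STMN1, the cytosolic stathmin of dividing cells, stood at 546, 544 and 523 CPM in control libraries 1, 2 and 3 and at 514, 440 and 442 CPM in β-alanine libraries 1, 2 and 3. All 3 treated libraries were below all 3 controls, but library 1 lay just under control 3 while libraries 2 and 3 were clearly lower. Such a lack of overlap, in either direction, was seen in 39.1% of tested genes. The means were 465 ± 41.8 CPM in treated and 537 ± 12.3 in control libraries (SD, n = 3 each). The log2 fold change was -0.21 ± 0.05 (SE; 95% interval -0.32 to -0.10), and edgeR gave an adjusted p of 0.00489. A change of at least this size was seen in 37.6% of tested genes, so a change of its size was common among them. Without β-alanine library 1 the log2 change was -0.29 (edgeR, adjusted p = 2.83e-09), the largest fall when 1 library was left out. The smallest was -0.17, and edgeR adjusted p-values over these sets reached 0.0372.

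STMN3, a palmitoylated member best known from neurons, was at 53.8, 56.7 and 51.6 CPM in control libraries 1, 2 and 3 and at 61.9, 56.0 and 58.8 CPM in β-alanine libraries 1, 2 and 3. The groups overlapped, since β-alanine library 2 lay below control 2. The means were 58.9 ± 2.97 CPM in treated and 54.0 ± 2.54 in control libraries (SD, n = 3 each). The log2 difference was 0.12 ± 0.05 (SE; 95% interval 0.01 to 0.23, not adjusted for the number of genes), and edgeR gave an unadjusted p of 0.0395 and an adjusted p of 0.109. A difference of this size in either direction was found in 59.8% of tested genes. Without β-alanine library 1, where STMN3 was highest, the log2 difference was 0.08 (edgeR, adjusted p = 0.204). So 1 of the 2 testable members was called, against 27.9% of all tested genes.

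**Figure D1:**
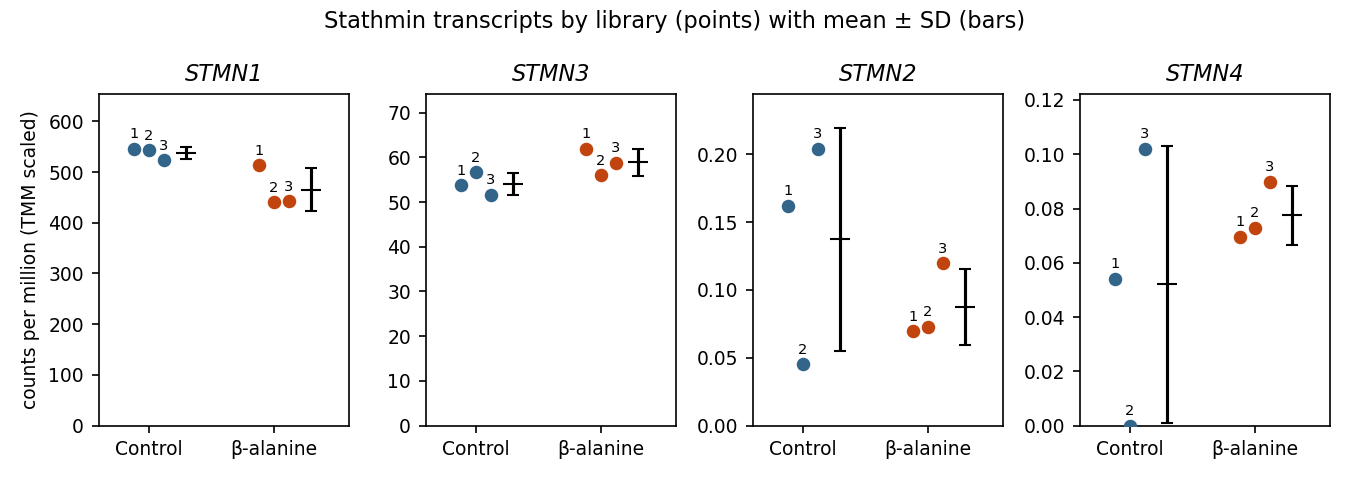
CPM (TMM-scaled) of the 4 stathmin genes, 1 panel per gene with its own axis from 0. Points are libraries with their replicate number, and bars are the mean ± SD of 3 libraries. The 3 treated STMN1 values (440 to 514) lie under the 3 controls (523 to 546), the STMN3 groups overlap, and STMN2 and STMN4 stay under 0.21 CPM.

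STMN2, the neuronal stathmin in the study's title, lies on chromosome 8 from 79611117 to 79666158 and had 3, 1 and 4 counts in control libraries 1, 2 and 3 and 1, 2 and 4 in β-alanine libraries 1, 2 and 3. The pooled level was 0.133 CPM in controls (95% exact Poisson interval 0.0575 to 0.262) and 0.0931 CPM after β-alanine (0.0374 to 0.192). STMN4, a member known mainly from brain, lies on chromosome 8 from 27235308 to 27258404 and had 1, 0 and 2 counts in the controls and 1, 2 and 3 after β-alanine. Its pooled levels were 0.0499 CPM (0.0103 to 0.146) and 0.0798 CPM (0.0293 to 0.174). Both genes failed the low-count filter. Their intervals, which cover only the error of counting, overlap between the groups. A difference was not detectable at this depth.

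Relatives of the family were just as low. STMND1, which encodes a protein with a stathmin-like domain, had 7 counts in all, and the processed pseudogene STMN1P1 had 13. STMN1P1 is a copy of the STMN1 transcript, so reads can be shared or lost between them. STMN1 also overlaps MIR3917, which had no counts, a pseudogene copy of RPL39, another of SNRPF and a long non-coding RNA that overlaps the promoter stretch shown. STMN2 overlaps a long non-coding RNA. No other annotated gene overlaps STMN3 or STMN4.

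Levels of different genes were compared per kilobase of the longest GENCODE 29 transcript that is paired with a RefSeq mRNA, 1712 bases for STMN1, 2223 for STMN2, 2351 for STMN3 and 2288 for STMN4. In controls the level was 314 ± 7.18 CPM per kilobase for STMN1 and 23.0 ± 1.08 for STMN3 (SD, n = 3). STMN2 followed with 0.0617 ± 0.0369, STMND1 with 0.0508 ± 0.0230 and STMN4 with 0.0227 ± 0.0223. The order STMN1 over STMN3 over the rest was far outside the spread between libraries, while STMN2, STMND1 and STMN4 did not differ beyond theirs. STMN1 ranked 119 and STMN3 ranked 2994 among 17015 genes with a length, and STMN2 and STMN4 ranked 13845 and 14619. After β-alanine the levels were 272 ± 24.4 for STMN1 and 25.0 ± 1.26 for STMN3, so the order of these 2 was the same.

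**Figure D2:**
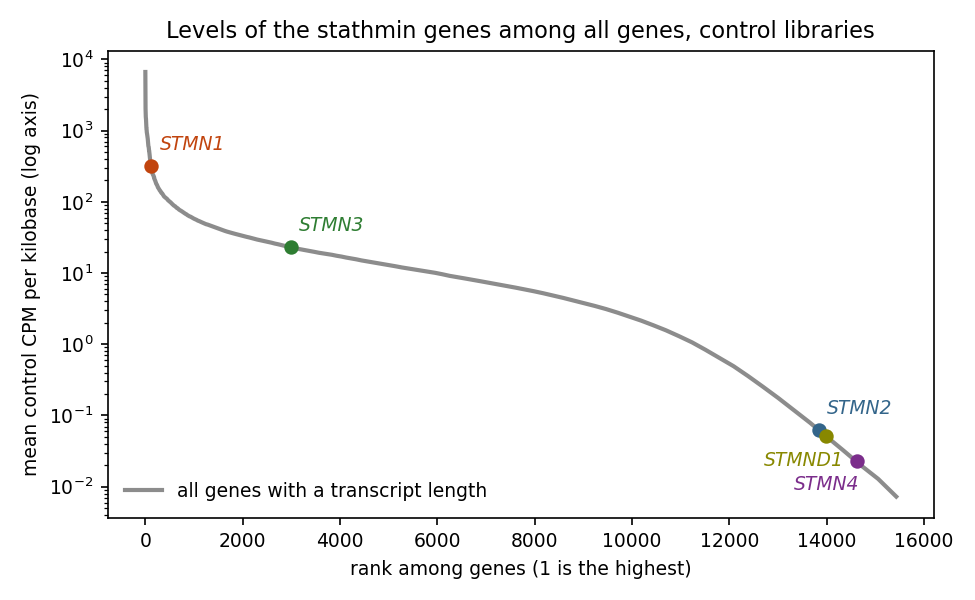
Mean control level in CPM per kilobase (log axis) against rank for genes with a transcript length and a level above 0, with the 4 stathmin genes and STMND1 marked. STMN1 is near the top at rank 119, STMN3 lies at rank 2994, and STMN2, STMND1 and STMN4 lie in the lowest part of the curve.

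The balance within the family was compared as the ratio of STMN1 to STMN3 counts. STMN1 had 10.1, 9.59 and 10.1 counts for each STMN3 count in control libraries 1, 2 and 3, and 8.30, 7.87 and 7.52 in β-alanine libraries 1, 2 and 3. The groups did not overlap, and this ratio does not depend on how libraries are scaled. How often ratios of other gene pairs fail to overlap was not computed. The log2 ratio was 3.32 ± 0.05 in the controls and 2.98 ± 0.07 after β-alanine (SD, n = 3 each), a difference of -0.34. The exact two-sided permutation test gave p = 0.1, the smallest that 3 against 3 libraries allow. Without β-alanine library 1 the difference was -0.37.

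As a share of family counts per kilobase, STMN1 made up 93.2% ± 0.191 in controls and 91.5% ± 0.39 after β-alanine, and STMN3 6.82% ± 0.208 and 8.45% ± 0.383 (SD, n = 3 each). The exact permutation test gave p = 0.1 for both shares. With so little STMN2 and STMN4, both shares and the ratio above restate the same comparison and are not separate results. STMN2 and STMN4 together came to between 0.00599% and 0.0416% in every library. The STMN1 share depends on the length used: over the union of all annotated exons, which is 6261 bases for STMN1, it was 82.8% in controls and 79.2% after β-alanine. Summed over the 4 genes, the family stood at 592 ± 14.3 CPM in controls and 524 ± 44.4 after β-alanine, where library 1 (575.7) lay within the range of the controls (575.3 to 600.2; exact permutation p = 0.2, n = 3 per group).

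**Figure D3:**
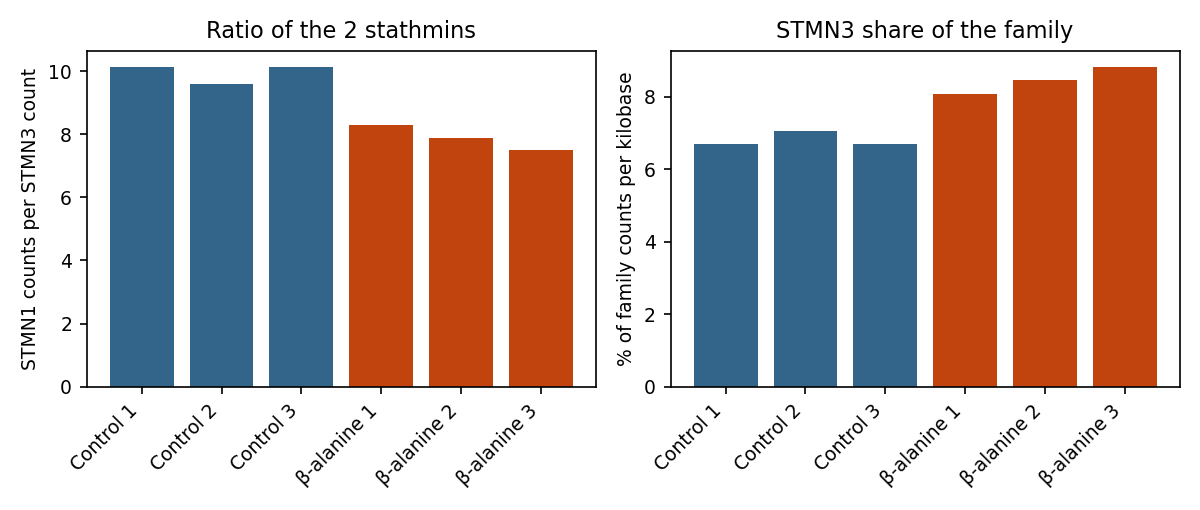
Left, STMN1 counts for each STMN3 count in each library. Right, the percentage of family counts per kilobase that belongs to STMN3. The 3 treated libraries (orange) lie between 7.52 and 8.30 on the left, all under the controls (blue, 9.59 to 10.1), and between 8.07% and 8.83% on the right, all over the controls (6.70% to 7.06%).

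STMN1 is a gene of dividing cells, and its pattern over libraries was close to that of 22 proliferation genes. Relative to the control mean, log2 STMN1 was -0.07, -0.29 and -0.28 in β-alanine libraries 1, 2 and 3, and the mean of the 22 genes was -0.04, -0.28 and -0.29. Both were near the controls in library 1 and lower in libraries 2 and 3. Of the 22 genes, all tested, 11 fell and none rose in edgeR, against 13.8% of all genes that fell, and the median log2 change was -0.17 against -0.003 over all genes. The helicase subunit MCM5 fell from 53.1 ± 1.88 to 39.4 ± 3.26 CPM (SD, n = 3 each), and MCM2 and MCM3 changed by log2 values of -0.38 and -0.39. MKI67, the gene of the Ki-67 proliferation marker, changed by -0.22. The number that fell was 18 without β-alanine library 1, but 5 without β-alanine library 2, control library 1 or control library 2, 4 without β-alanine library 3 and 7 without control library 3. A fall that was larger in β-alanine libraries 2 and 3 was not particular to these genes, though not every list shared it. The 13 tubulin isotypes summed to 3725, 3338 and 3348 CPM in β-alanine libraries 1, 2 and 3, against 3751 to 3969 in controls. That holds for the sum only. The mean log2 level of the 11 tested isotypes relative to controls was 0.05, 0.04 and 0.07 in these libraries. For the 6 fibroblast markers the sums were 1009, 908 and 910 CPM, against 1140 to 1184. Whether STMN1 moved with the share of dividing cells was not tested.

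STMN3 did not show that pattern. Its log2 level in β-alanine libraries 1, 2 and 3 exceeded the mean of the controls by 0.20, 0.05 and 0.12, highest where STMN1 was least reduced. In control library 2 STMN3 exceeded that mean by 0.07, more than in β-alanine library 2. Of 22 neuronal and neurite genes, 19 were tested, 7 rose (14.1% of all genes did) and 1 fell in edgeR. The list's median log2 change was -0.02 while its mean relative to controls was 0.12, 0.16 and 0.15 in β-alanine libraries 1, 2 and 3, so the median and the mean differed in sign. That mean was lowest in library 1 and highest in library 2, the reverse of STMN3. SYN1, a synaptic vesicle phosphoprotein, rose from 9.61 ± 0.912 to 17.6 ± 1.38 CPM and SYP, synaptophysin, from 61.0 ± 4.23 to 86.3 ± 4.26 CPM (SD, n = 3 each). The intermediate filament gene INA rose by a log2 of 0.35 ± 0.05 (SE). SNAP25, a SNARE protein of the nerve terminal, rose by 1.17 ± 0.18, from a low 2.25 to 4.91 CPM. The growth cone gene GAP43 was at 0.017 CPM in controls and DCX, which stabilises microtubules in young neurons, at 0.0152 CPM, both below the 0.137 CPM of STMN2.

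**Figure D4:**
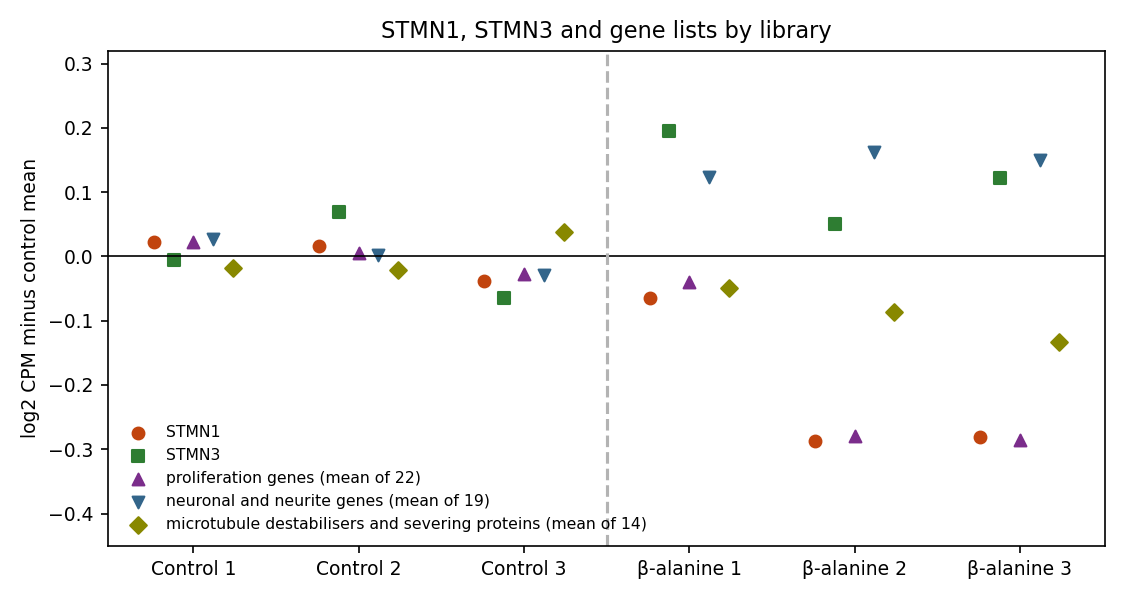
Log2 CPM minus the control mean in each library for STMN1, STMN3 and the means of 3 gene lists over their tested members. STMN1 and the mean of the 22 proliferation genes lie together in every library, near 0 in β-alanine library 1 and close to -0.28 in libraries 2 and 3. STMN3 was not called and lies above 0 in all 3 treated libraries, but also in control library 2 (0.07). The mean of the 19 neuronal genes lies above 0 in all 3 treated libraries and slightly so in control library 1 (0.03). The median log2 change of those 19 genes was -0.02. Among treated libraries that mean is lowest in library 1, where STMN3 is highest.

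By a measure of likeness over the 6 libraries, the root-mean-square difference of log2 CPM with each gene centred on its own mean, the genes closest to STMN1 among 12693 were SRSF2 (0.00918), BCAS4 (0.0122), OLFM1 (0.0124), POLE (0.0133) and DNAAF3 (0.0142). The median over all these genes was 0.158. SRSF2 encodes a splicing factor and POLE the catalytic subunit of DNA polymerase epsilon. POLE stood at 153, 152 and 150 CPM in control libraries 1, 2 and 3 and at 143, 123 and 125 CPM in β-alanine libraries 1, 2 and 3. For STMN3 the closest were CBX7 (0.0209), OPN3 (0.0236), CEP85 (0.0247), NACAD (0.0266) and ZNF598 (0.0269), where the median was 0.129. All 5 genes closest to STMN1 fell in edgeR, with log2 changes from -0.21 to -0.24, and none of those closest to STMN3 passed. Being chosen for likeness to a member, they had to move with it. The calls of SRSF2 (edgeR, adjusted p up to 0.0595), OLFM1 (up to 0.0999) and DNAAF3 (up to 0.181) did not hold without β-alanine library 2 or without control library 1 or 2. Those of OLFM1 and DNAAF3 also did not hold without β-alanine library 3 (edgeR, adjusted p = 0.0706 and 0.16), and that of DNAAF3 without control library 3 (0.0651), with unscaled totals (0.0521), after thinning (0.198) and with DESeq2 (0.096).

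The partner of stathmins is tubulin, and the transcripts of the main isotypes were of the same order per kilobase as STMN1. TUBA1B stood at 668 and TUBB at 597 CPM per kilobase in controls, against 314 for STMN1. Of 13 tubulin isotypes 11 were tested, 2 rose and 2 fell in edgeR, a share of 36.4% against 27.9% of all genes. TUBB fell from 1734 ± 59.5 to 1456 ± 110 CPM and TUBA1B from 1087 ± 21.6 to 984 ± 81.9 CPM (SD, n = 3 each), while TUBB2A and TUBB2B, isotypes rich in neurons, rose by log2 values of 0.39 ± 0.07 and 0.20 ± 0.06 (SE). Tubulin genes have near-identical copies, so their counts are uncertain. The call of TUBA1B did not hold without β-alanine library 2 (edgeR, adjusted p = 0.154), β-alanine library 3 (0.113), control library 1 (0.122) or control library 2 (0.101), and its log2 change of -0.14 was -0.22 without β-alanine library 1. That of TUBB2B did not hold without control library 3 (edgeR, adjusted p = 0.102).

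Transcripts for other proteins that shorten or cut microtubules moved in both directions. Of 15 destabilising and severing genes 14 were tested, 3 rose and 4 fell in edgeR, 50% against 27.9% of all genes, with a median log2 change of -0.11. KATNA1, the catalytic subunit of katanin, rose by 0.34 ± 0.07 and KIF2C, a depolymerising kinesin of the spindle, by 0.19 ± 0.04, from 154 ± 3.51 to 176 ± 6.49 CPM. FIGNL1 and KATNBL1 changed by -0.24 ± 0.06 and -0.26 ± 0.06 (SE).

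Of 29 genes that stabilise microtubules or bind their ends, 28 were tested, 1 rose and 5 fell in edgeR, a share of 21.4% that is near the 27.9% of all genes. DCLK2, a kinase related to doublecortin, changed by a log2 of -0.36 ± 0.06, CLASP2, which binds growing plus ends, by -0.23 ± 0.04 and the spindle pole protein NUMA1 by -0.25 ± 0.05. MAP1B, a microtubule-associated protein of growing axons, rose by 0.22 ± 0.04 (SE).

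Genes for enzymes that phosphorylate or dephosphorylate stathmin 1 also moved both ways. All 25 were tested, 5 rose and 5 fell in edgeR, 40% against 27.9% of all genes, with a median log2 change of 0.003. CAMK4, a calcium and calmodulin dependent kinase, changed most of those named, from 6.82 ± 0.555 to 3.42 ± 0.912 CPM (SD, n = 3 each). The mitotic kinases PLK1 and AURKB changed by log2 values of -0.32 ± 0.06 and -0.28 ± 0.06, and UHMK1, a kinase that phosphorylates stathmin 1, rose by 0.17 ± 0.04 (SE). The 10 calls became 5 without β-alanine library 2 or control library 2, and 6 without β-alanine library 3.

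Of 16 regulators of stathmin transcripts or proteins, all tested, 1 rose and 4 fell in edgeR, 31.3% against 27.9% of all genes. FOXM1, a transcription factor of mitotic genes, changed by a log2 of -0.25 ± 0.05, and MAP3K12, a kinase of axon injury signalling, by -0.19 ± 0.04. SARM1, which drives axon degeneration, changed by -0.24 ± 0.06 and STAT3, whose protein binds stathmin 1, by 0.25 ± 0.05 (SE). The call of SARM1 did not hold without β-alanine library 3 (edgeR, adjusted p = 0.0527). REST, a repressor of neuronal genes, was at 88.3 CPM in controls and 93.6 after β-alanine (edgeR, adjusted p = 0.198). TARDBP, whose protein TDP-43 keeps STMN2 transcripts correctly spliced, was at 159 and 154 CPM (edgeR, adjusted p = 0.378).

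STMN2, STMN3 and STMN4 need palmitoylation to reach membranes. The list of 12 genes held Golgi palmitoyltransferases, the Golgi protein GOLGA7 and the opposing thioesterases, and all were tested. In edgeR 2 rose and 1 fell, a share of 25% that is near the 27.9% of all genes. The thioesterase gene LYPLA2 rose from 70.4 ± 1.14 to 89.4 ± 6.84 CPM (SD, n = 3 each). ZDHHC15 changed by a log2 of -0.43 ± 0.10 and GOLGA7 by 0.15 ± 0.04 (SE). The call of GOLGA7 did not hold without β-alanine library 2 (edgeR, adjusted p = 0.0839), control library 2 (0.0828) or control library 3 (0.0522).

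**Figure D5:**
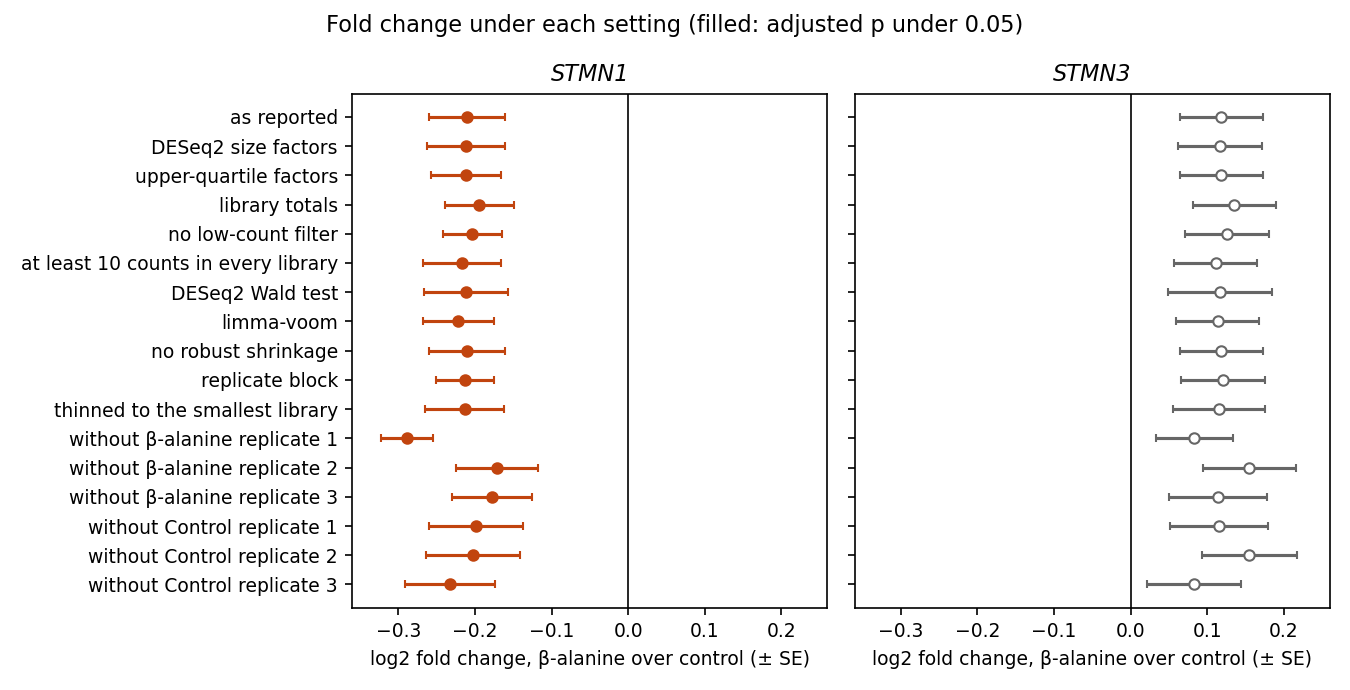
Log2 fold change of STMN1 and STMN3 (β-alanine over control, ± SE) as reported and under 16 other settings of scaling, filter, tool and libraries. Filled points have an adjusted p under 0.05. STMN1 is called and negative in every setting shown (-0.17 to -0.29), and STMN3 is positive and not called in every setting shown (0.08 to 0.16).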

How the data were processed

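The table the authors deposited holds whole-number counts by gene symbol, not normalised. The submitters' processing notes list GRCh38 and, with no order or role, DESeq2, featureCounts 2.0.1, STAR 2.7.3a, Trimmomatic 0.39 and bcl2fastq. Annotation and strand setting: not given in the sources used here, so reads of an antisense partner may be included in a gene's count. Groups and replicate numbers came from the sample titles.

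Genes were filtered with filterByExpr (17331 kept), scaled by TMM and tested on all 6 libraries in edgeR 4.0.16 (R 4.3.3) by a robust quasi-likelihood F-test, two-sided, with Benjamini-Hochberg adjustment over all tested genes and a threshold of 0.05. The common dispersion was 0.00189. Values by library relative to controls are log2(CPM + 0.5). STMN2 and STMN4 failed the filter and are given as counts with exact 95% Poisson intervals. Ratios and shares were compared by exact permutation over libraries.

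On simulated counts for this comparison (17127 genes), a fold of 1.25, larger than that of STMN1, was recovered for 62% of 50 genes and a fold of 1.5 for 92% of 50, with 8 false calls among 183. The simulation gave every gene the common dispersion and held no deviating library. It also changed a far smaller share of genes than the 27.9% called here. These rates therefore do not give the error rate of the real comparison.

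The members and gene lists were chosen with earlier results of these data known, and no list was tested as a set. Named genes are the members, STMND1, up to 4 called genes with the smallest p per list, and the 5 genes most like each tested member among those with an average log2 CPM of at least 1 and a regular symbol, genes that overlap a member, and the markers of the line. REST, TARDBP, GAP43, DCX, the pseudogene STMN1P1 and the markers of other cell types were named after their values were seen. Of 47 named genes checked, 20 overlap another RefSeq gene, among them BCAS4, SRSF2, DNAAF3, FOXM1, MAP3K12, NUMA1, SARM1, SYN1, SYP and SNAP25, so their counts are uncertain. Lengths came from GENCODE 29, in place of the RefSeq lengths first planned, and promoter sequences from RefSeq (GRCh38.p14). Figures were drawn with matplotlib 3.10.9. Alternatives were other scaling factors, filters, DESeq2 1.42.0, limma-voom (limma 3.58.1), no robust shrinkage, a replicate block, thinning, other lengths and leaving out each library. The union of exons was added after seeing the data.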

Additional observations from a re-analysis of the deposited data

How the results depend on the processing

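STMN1 kept its direction and its call, and STMN3 its direction and lack of a call, under all 16 alternatives run for each. The log2 change of STMN1 ran from -0.29 to -0.17 and that of STMN3 from 0.08 to 0.16. Adjusted p-values in edgeR, DESeq2 or limma-voom were 2.83e-09 to 0.0372 for STMN1 and 0.0678 to 0.373 for STMN3. The log2 ratio of STMN1 to STMN3 differed by -0.37 to -0.30 over the 6 sets that leave out 1 library, and the difference in STMN1 share was -3.56 to -1.45 percentage points over 9 alternatives. With no low-count filter STMN2 and STMN4 could be tested and did not pass (edgeR, adjusted p = 0.778 and 0.788). The STMN4 difference of 0.0255 CPM was -0.00118 after thinning and -0.000591 without control library 2. The number of genes called was 4830, and 2974 to 6498 when 1 library was left out. Depth limits STMN2, STMN4 and STMND1, which had at most 4 counts in any library.

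With the replicate number as a block, STMN1 changed by a log2 of -0.21 (edgeR, adjusted p = 0.000131), STMN3 by 0.12 (0.1), and the block moved the count of genes called to 5172. Deviations of same-numbered libraries from their group means correlated at 0.0655, 0.00236 and 0.105 over 17331 genes, β-alanine library 2 correlated best with control library 1 (0.012), and nothing in the labels pairs the libraries. Proliferation genes called lower were 17 with the block and 7 with the DESeq2 Wald test, against 11.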
